A study of Homo sapiens with 8 samples.

Results

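The genes described here were 10 immediate early genes, of 19970 protein-coding genes on chromosomes 1 to 22 and X. They were taken by name: the AP-1 genes FOS, FOSB, JUN, JUNB, JUND and ATF3, and EGR1, IER2, MYC and KLF6. Opened DNA was measured by KAS-seq, in which N3-kethoxal reacts with unpaired guanines in living cells and the labelled fragments are enriched and sequenced. HEK293T was used, a human line derived from embryonic kidney that carries the SV40 large T antigen. Control cells were labelled with 5 mM N3-kethoxal for 10 min, and vitamin C cells first spent 10 min in medium with 0.5 mM vitamin C and were then labelled in the same way. Each condition had 2 labelled libraries, each with its own peak list, among 8 samples in all, of which 4 are inputs not used here. Whether the replicates are separate cultures is not in the labels, so p-values measure the library spread alone, which may have a technical source.

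Immediate early genes are switched on within minutes of a stimulus, from RNA polymerase II already paused near their starts and without new protein synthesis. Serum response factor, its Elk partners and CREB drive many of them, downstream of MAP kinases. FOS, JUN and ATF family proteins pair through leucine zippers and bind AP-1 and related sites; EGR1 and KLF6 are zinc finger factors, and MYC pairs with MAX to bind E-boxes.

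Before any value, 3 stretches of reference sequence show the contrast within the group: JUN, whose start lay under a peak in every library, and FOS and EGR1, where no peak was called in any. Each is the 250 bases before the RefSeq start in GRCh38.p14, written 5′ to 3′ on the strand of the gene. In JUN (chr1:58784048-58784297, minus strand) capitals mark the 6 bases spanned by the summits of the 4 libraries. In FOS (chr14:75278578-75278827, plus strand) they mark the TATAAA match, and in EGR1 (chr5:138465229-138465478, plus strand) both matches to the CArG box, the site of serum response factor.
JUN: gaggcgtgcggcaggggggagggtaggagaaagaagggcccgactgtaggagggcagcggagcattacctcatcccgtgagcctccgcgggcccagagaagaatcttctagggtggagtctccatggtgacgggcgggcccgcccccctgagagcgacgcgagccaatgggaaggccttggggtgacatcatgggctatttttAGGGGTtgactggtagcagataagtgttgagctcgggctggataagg
FOS: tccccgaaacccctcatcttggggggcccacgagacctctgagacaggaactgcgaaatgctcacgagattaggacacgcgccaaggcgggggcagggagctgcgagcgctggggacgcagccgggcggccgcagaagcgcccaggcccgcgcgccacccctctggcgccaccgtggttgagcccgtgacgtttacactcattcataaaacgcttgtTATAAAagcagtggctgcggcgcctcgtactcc
EGR1: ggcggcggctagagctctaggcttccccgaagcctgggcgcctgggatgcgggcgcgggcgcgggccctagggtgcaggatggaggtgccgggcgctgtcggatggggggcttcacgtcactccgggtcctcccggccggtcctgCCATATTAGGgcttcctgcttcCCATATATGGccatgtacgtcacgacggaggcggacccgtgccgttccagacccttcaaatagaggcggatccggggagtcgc

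Peaks covered all 250 of these bases at JUN in both controls, and 234 and 243 of them with vitamin C. No base of this window was covered in any library at the 8 other genes of the group that have one in the table, ATF3 with 2 annotated starts included; MYC has no entry. Over 22155 such windows of protein-coding genes, 595 were met by a peak in all 4 libraries (2.69%), and 173 were covered for at least 90% in all 4 (0.781%). On the strand of the gene, guanine, the base that the probe labels, made up 40% of the JUN window, 31.6% at FOS and 37.6% at EGR1, against a median of 30.4%. Guanine and cytosine together, which count the guanines of both strands, made up 62% at JUN, 64.8% at FOS and 68.4% at EGR1, against a median of 62%. The highest guanine share on the gene strand was at KLF6, at 48.8%, where this window held no peak either. Motifs were searched on both strands. Sites further upstream than these 250 bases were not searched, so a gene without a match here may still have the site. Within the windows, the CArG box, present in 1.18% of them, was found in EGR1 alone among the 9 genes. TATAAA, present in 9% of windows, was found at FOS, FOSB, JUNB and the second ATF3 start. The CRE, TGACGTCA (2.01% of windows), was found at JUND, and the E-box CACGTG (7.37%) at KLF6. The AP-1 site, as an exact TGACTCA or TGAGTCA (3.46%), was in none of these windows. Variants were not searched, and the JUN sequence above holds tgacatca, which differs from the CRE by 1 base. GGGG, present in 91.9% of windows, was found in each of them, and 1 of the matches at JUN lies within its capitals.

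Fewer bases were called as opened at these genes after vitamin C, as over the genome. A gene was scored with a peak in a library if the gene, widened by 1 kb on both sides, shared at least 1 base with one. This held for 8 and 6 of the 10 genes in control replicates 1 and 2, and for 5 in each vitamin C library; over all protein-coding genes the shares were 43.2% and 39%, then 23% and 23%. The bases covered summed to 8360 and 8714 over both controls and to 3631 and 3450 with vitamin C. The mean was 8537 ± 250.3 bp (SD, n = 2) in the controls and 3541 ± 128 bp after vitamin C, a log2 ratio of -1.27, beside -1.61 over all protein-coding genes. The controls did not overlap the vitamin C libraries in this sum. Both differences depend on the list length: in lists cut to their 9816 peaks of lowest q, the mean number of the 10 genes with a peak was higher by 0.5 after vitamin C, and the log2 ratio of covered bases was -0.38. Over the 8 genes with a peak anywhere the median difference in bases covered (vitamin C minus control) was -442 bp, and over the 9484 genes of the genome with one it was -479.5 bp. In a population of cells, fewer cells with opened DNA and less opening in each cell cannot be told apart.

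**Figure D1:**
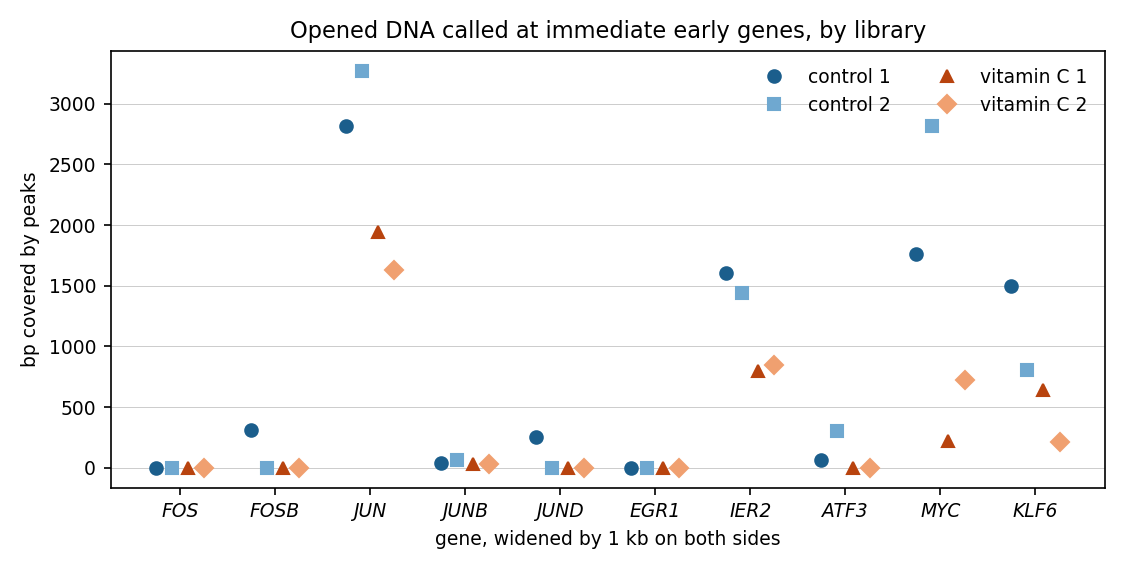
Bases covered by peaks (vertical axis, bp) in each of the 10 genes widened by 1 kb, with 1 point per labelled library (circle and square, control; triangle and diamond, vitamin C). JUN, MYC, IER2 and KLF6 hold nearly all covered bases, FOS and EGR1 have none, and at JUN both controls (2814 and 3271 bp) lie above both vitamin C libraries (1940 and 1630 bp).

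The lists held 30351 and 24111 control peaks and 9816 and 9896 vitamin C peaks on these chromosomes. Solved from the deposited statistics, each position carried on average 0.817 and 0.849 labelled fragments in control cells and 1.22 and 0.871 after vitamin C. The weakest peak called over the genome-wide background held 6, 6, 10 and 7 fragments at its summit, which is 7.06 to 8.16 times the mean of its library. Where no peak was called, opening below about that level was not detectable at this depth. Where the local background was raised, the level needed was higher, so a missing peak does not bound the opening at that level. In vitamin C replicate 1, a JUN peak over a raised background stood at 18.8 times the mean and had a −log10 q of just 2.45. Among markers chosen for the line, VIM had peaks in all 4 libraries and EYA1 in 3, while PAX2, LHX1, KRT8, KRT18, NES and CDH2 had none in any. Among markers of other cell types, 14 had none, ALB was covered for 209 bp in vitamin C replicate 1 alone and HBA1 for 82 bp in control replicate 1 alone; the part of such cells in the results was not tested.

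Of the 10 genes, 6 had a peak in both controls: JUN, JUNB, IER2, ATF3, MYC and KLF6. This was so at 35.3% of all protein-coding genes. Of the 6, 5 were kept, meaning a peak in all 4 libraries, and ATF3 was lost, meaning a peak in the controls alone. The 7045 protein-coding genes with control peaks were kept in 49.7%, partly kept (1 vitamin C library) in 23.4% and lost in 26.9% of cases. In lists of equal length 3881 genes had a peak in both controls, and 76% were kept, 16.6% partly kept and 7.42% lost. A gain, with peaks after vitamin C alone in both libraries, occurred at none of the 10 genes and at 0.025% of all protein-coding genes. FOS and EGR1 had no peak in any library, as had 52.5% of genes. In all 6 genes, of 8 with a peak in any library, the bases covered in both vitamin C libraries were below those in both controls. This held for 6358 of 9484 genes with a peak in any library (67%). It can occur only where both controls have a peak, which 7045 genes had. None of the 10 was higher in both vitamin C libraries, against 0.169% of the 9484 genes. For each of the 6 the two-sided exact permutation test gave p = 0.333, the smallest that 2 libraries against 2 allow, and 0.496 after Benjamini-Hochberg adjustment over 9484 genes. Of those genes 0 (0%) passed 0.05 after adjustment; the unadjusted p cannot go below 0.05 in this design. In lists of equal length ATF3 had no peak in any library, and JUNB had one in control replicate 2 and in both vitamin C libraries, with 0, 67, 30 and 31 bp.

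JUN, the chief partner of FOS in AP-1, had the most covered bases of the group in each full peak list. The gene lies on chromosome 1 from 58780791 to 58784047, on the minus strand. Covered bases were 2814 and 3271 in the controls and 1940 and 1630 after vitamin C, with means of 3043 ± 323.1 and 1785 ± 219.2 bp (SD, n = 2). Both vitamin C libraries were lower than both controls, with a mean difference of -1257.5 bp (exact permutation p = 0.333). Its direction turned with the list length: cut to equal length, the bases were 2463 and 794 in the controls and 1940 and 1630 after vitamin C, and the difference turned to 157 bp in favour of vitamin C.

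The peak at the start of JUN had the highest summit of the group in every library, in fragments over the library mean; by the authors' fold, the central IER2 peak was higher in vitamin C replicate 1 (19.6 against 16.4). It was 480 and 446 bp wide in the controls and 418 and 426 bp after vitamin C, and its summit lay at -42, -45, -45 and -47 bp from the annotated start. These summits, marked by the capitals of the JUN sequence, fell within 6 bp, a span smaller than at all but 1.13% of 3996 regions met in all 4 libraries at protein-coding genes, where the median span was 111 bp. By the authors' fold it stood at percentiles 99.5 and 99.0 of the control lists and 95.5 and 97.2 of the vitamin C lists. The summit held 63, 48, 62 and 35 fragments, in the order control 1, control 2, vitamin C 1, vitamin C 2. Divided by the mean of each library these were 77.2 and 56.5 times the mean in the controls and 50.6 and 40.2 times after vitamin C. The ratio of the group means was 0.679 (exact permutation p = 0.333), and 0.874 for fragments not divided by depth.

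A second stretch of opened DNA ran across the 3′ end of JUN. In the controls it was a single peak of 2308 and 2811 bp that ended 4581 and 4590 bp from the start, past the annotated end at 3257 bp of gene length. With vitamin C it fell into 2 peaks, of 561 and 1281 bp in replicate 1 and of 233 and 1171 bp in replicate 2. The gap lay at the end of the gene, from 2939 to 3296 bp and from 2629 to 3286 bp downstream of the start. The highest summit in the stretch held 33.1 and 25.9 times the mean in the controls and 18.8 and 20.7 after vitamin C, a ratio of 0.669 with groups that did not overlap. As taken, these summits spanned 1336 bp. In vitamin C replicate 2, however, summits at 2500 and 3490 bp from the start tied at 20.7 times the mean, and the one at 2500 bp was used. The tied summit at 3490 bp lay beside those of control replicate 2 (3492 bp) and vitamin C replicate 1 (3486 bp). Control replicate 1 had its summit at 3835 bp. The ratio is the same with either tied summit, and it still compares different places in the stretch. Between these stretches, a peak 1059 and 1065 bp into the gene was called in both controls, at 15.9 and 18.8 times the mean, and in neither vitamin C library. A peak at -1083 bp from the start, which meets the divergent non-coding gene JUN-DT, was called in control replicate 1 alone.

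**Figure D2:**
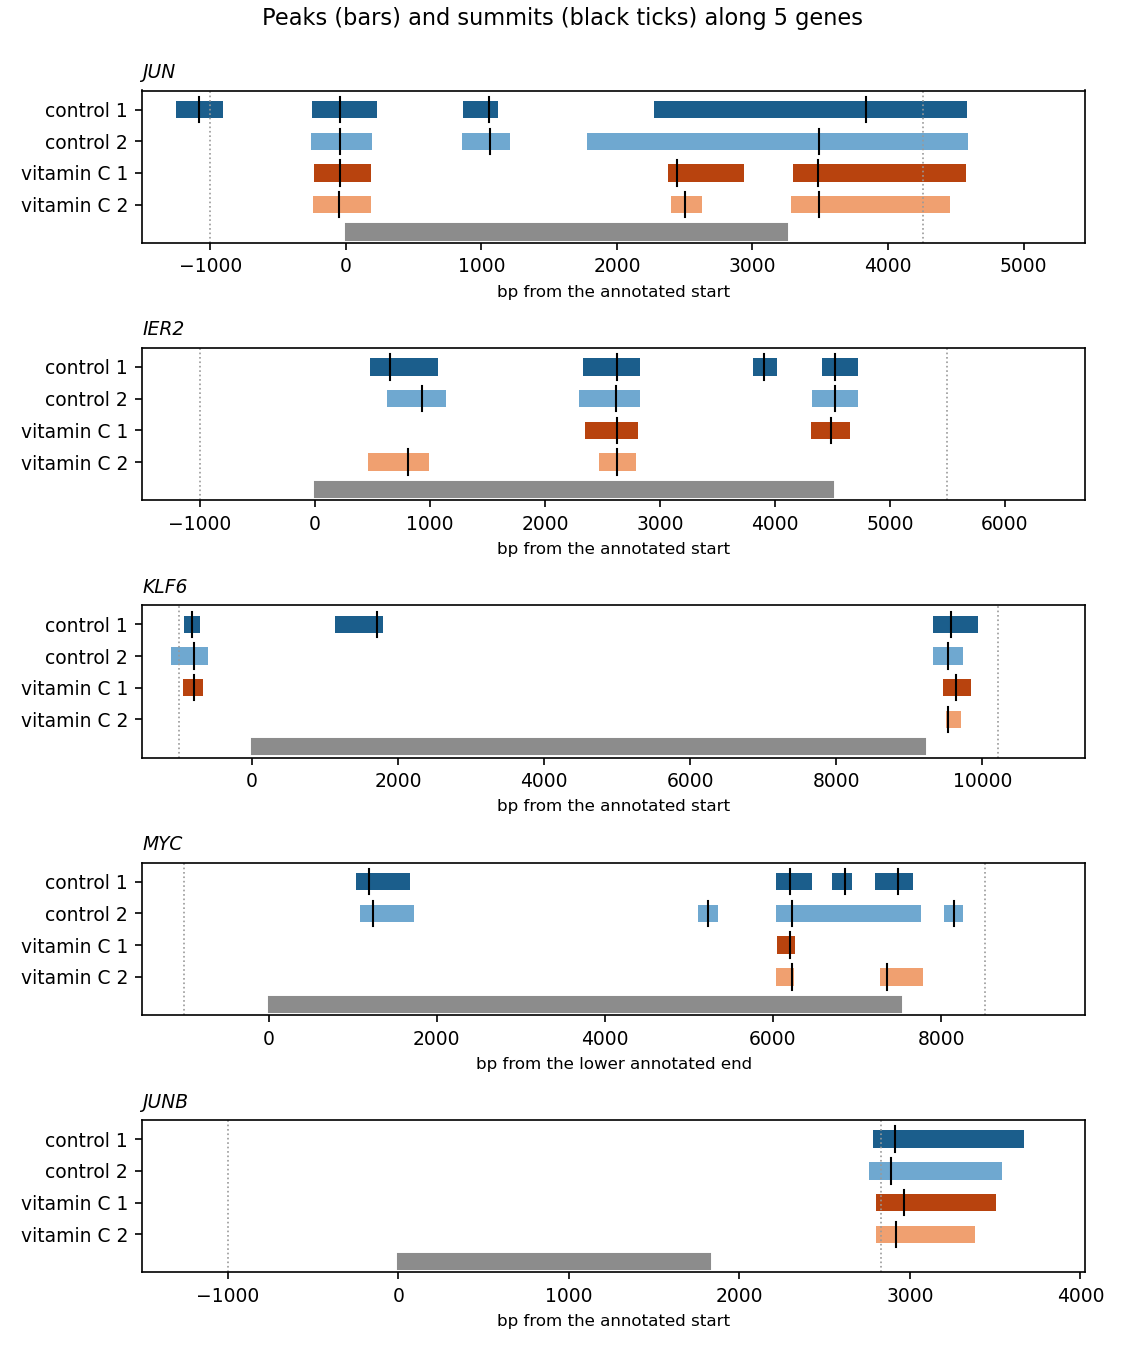
Peaks (bars) and their summits (black ticks) along JUN, IER2, KLF6, MYC and JUNB in the 4 labelled libraries; the horizontal axis is the distance in bp from the annotated start (for MYC, from the lower annotated end), the grey bar is the gene and dotted lines mark 1 kb beyond it. The JUN start peak and the IER2 body peak keep their place in every library. The long control peak at the 3′ part of JUN is split with vitamin C. At the 3′ part of MYC, control replicate 2 alone has a long peak (1718 bp), and control replicate 1, like the vitamin C libraries, has shorter ones.

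JUNB and JUND, the other Jun proteins, showed no opened DNA at their starts. At JUNB (chromosome 19, 12791486 to 12793315, plus strand) the peak lay past the gene end, beginning 2763 to 2800 bp from the start of a gene of 1830 bp. Its widths were 884 and 778 bp in the controls and 707 and 581 bp after vitamin C. The 4 summits stood 1063 to 1134 bp beyond the gene end and so outside the widened gene, whose covered bases were just 44, 67, 30 and 31. At the summit the levels were 18.4 and 25.9 times the mean in the controls and 19.6 and 16.1 after vitamin C. These overlap between groups (ratio 0.806, exact permutation p = 0.667). Further peaks followed downstream in each library, into PRDX2, a peroxiredoxin gene whose nearest edge was 1668 bp away, so the signal cannot be assigned to JUNB alone. At JUND (chromosome 19, 18279694 to 18281622, minus strand) 1 peak of 257 bp was called, in control replicate 1, 327 bp past the gene end and at 14.7 times the mean. The other 3 libraries had none.

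The Fos genes were bare or nearly so. FOS (chromosome 14, 75278828 to 75282230, plus strand) had no peak in any library, and none within 5 kb either. FOSB (chromosome 19, 45467996 to 45475179, plus strand) had 1 peak of 312 bp in control replicate 1, with its summit 231 bp downstream of the start and at 17.1 times the mean, and none in the other libraries. A far stronger peak in all 4 libraries lay 2956 to 3037 bp past the end of FOSB. It covered TRU-TCA1-1, the gene of the selenocysteine tRNA, which RNA polymerase III transcribes. Its summit stood at 68.6 and 64.7 times the mean in the controls and 44.1 and 33.3 after vitamin C.

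ATF3, a stress-induced partner of the Jun proteins, was scored as lost, but its control peaks lay at different places. In control replicate 1 a peak of 210 bp met the widened gene (chromosome 1, 212565407 to 212620777, plus strand) for 65 bp, with its summit 1045 bp past the gene end. In control replicate 2 a peak of 308 bp lay inside the gene, its summit 1869 bp downstream of the second annotated start at 212615018. These summits held 9 and 16 fragments, or 11.02 and 18.8 times the mean. Where the summit or the larger part of the peak had to lie in the widened gene, ATF3 no longer had a peak in both controls.

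EGR1 (chromosome 5, 138465479 to 138469303, plus strand), a zinc finger factor of the serum response, had no peak in any library, within 5 kb included. IER2, a small nuclear protein gene induced along with FOS and EGR1, was opened in each library. It lies on chromosome 19 from 13150411 to 13154911, on the plus strand. Covered bases were 1605 and 1444 in the controls and 802 and 851 after vitamin C, with means of 1525 ± 113.8 and 827 ± 34.6 bp (SD, n = 2). Both vitamin C libraries were lower than both controls (exact permutation p = 0.333); in lists of equal length the values were 499 and 925 bp against 802 and 851 bp, and the mean difference turned to 115 bp in favour of vitamin C.

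The strongest peak of IER2 lay in the middle of the gene and not at its start. Its summit was 2625, 2619, 2624 and 2627 bp from the start, a span of 9 bp, in control 1, control 2, vitamin C 1 and vitamin C 2. It stood at 58.8 and 37.7 times the mean in the controls and 39.2 and 32.2 after vitamin C, so the groups overlapped (ratio 0.740, exact permutation p = 0.667). A weaker peak nearer the start, with summits 655 to 934 bp into the gene, was called in both controls and in vitamin C replicate 2. The nearest edge of STX10, another coding gene, lay 498 bp from the region of this peak, and its part in the signal was not tested. A peak at the end of IER2, with summits at 19 and 20 bp from it in the controls, was also called in vitamin C replicate 1, at -13 bp. The central peak was 499 and 527 bp wide in the controls and 466 and 318 bp after vitamin C, so it too was narrower in both vitamin C libraries. A further peak of 210 bp was called in control replicate 1 alone.

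KLF6, a Krüppel-like factor, was opened in all or most libraries on either side of the gene (chromosome 10, 3775996 to 3785209, minus strand). Covered bases were 1500 and 809 in the controls and 639 and 214 after vitamin C. The stronger region lay just past the gene end, with summits 359 and 320 bp beyond it in the controls and 428 and 313 bp after vitamin C. Its widths were 612, 411, 373 and 214 bp. The summit level was 51.4 and 50.6 times the mean in the controls and 29.4 and 21.8 after vitamin C. The ratio, 0.502, was the lowest of the group, and 1.95% of the 3996 regions met in all 4 libraries had a lower one. It was 0.428 to 0.576 with 1 library left out, and 0.647 for fragments not divided by depth. The exact permutation p was 0.333. By the authors' fold the peak went from percentiles 97.1 and 96.3 to 81.6 and 7.53; in vitamin C replicate 2 the local background under it, solved from fold and p, was 4.17 fragments, against 1.56 and 1.91 in the controls. Upstream of KLF6, a peak with its summit at -816 and -798 bp from the start in the controls was also called in vitamin C replicate 1, at -796 bp, but not in replicate 2. Inside the gene a peak of 659 bp, with its summit 1714 bp from the start, was called in control replicate 1 alone, and it makes up much of the 1500 bp of that library.

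MYC, a growth-promoting transcription factor, had the largest mean difference in covered bases of the 10 genes, except where genes were widened by 5 kb (-1817 bp, against -2192.5 bp at JUN). Its positions are given from the lower annotated end (chromosome 8, 127735434 to 127742951), where its transcription is known to begin. Covered bases were 1763 and 2815 in the controls and 220 and 724 after vitamin C, with means of 2289 ± 743.9 and 472 ± 356.4 bp (SD, n = 2), a difference of -1817 bp (exact permutation p = 0.333). The groups did not overlap, and in lists of equal length they did: 434 and 2361 bp against 220 and 724 bp. A peak 1200 and 1237 bp into the gene was called in both controls, 647 and 643 bp wide and at 15.9 and 16.5 times the mean, and in neither vitamin C library. Peaks of the 4 libraries merged into a stretch from 6035 bp into the gene to beyond its end, and each library covered part of it. In vitamin C replicate 1 this was a single peak from 6048 to 6267 bp, which did not reach the gene end. In control replicate 1 the stretch was also broken into separate peaks. There the controls held 1116 and 1718 bp, the vitamin C libraries 220 and 724 bp. The first summit of this stretch kept its place, at 6207, 6224, 6208 and 6226 bp, with 23.3, 17.7, 18.0 and 12.6 times the mean.

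Across the group, the peaks merged into 20 regions. Of these, 11 had a peak in both controls: 6 of them were kept, 3 partly kept and 2 lost. Over 12193 merged regions with control peaks at protein-coding genes, 32.8% were kept, 25.3% partly kept and 41.9% lost. The 2 lost regions were the inner peaks of JUN and MYC, each about 1 kb into its gene. The other 9 regions had a peak in 1 control and in no vitamin C library, as did 52.7% of all merged regions at protein-coding genes. No region was called with vitamin C alone, and the share of such regions over all protein-coding genes was not counted.

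At the 6 regions met in every library the summit level was lower with vitamin C in the mean. The highest summit of each library was taken, and its place spanned 1150 bp at MYC. At the JUN 3′ stretch it spanned 1336 bp, which rests on a tie between summits of vitamin C replicate 2. The ratios of group means ran from 0.502 to 0.806 with a median of 0.710, beside a median of 0.721 over the 3996 such regions of the genome, with 10th and 90th percentiles of 0.584 and 0.895. At 3 of the 6, the JUN start, the JUN 3′ stretch and the KLF6 end, both vitamin C libraries were below both controls. This was so at 76.2% of the regions of the genome; the opposite was seen at none of the 6 and at 0.626% of the regions. The ratio depends on the depth correction, since vitamin C replicate 1 was the deepest library: undivided fragments gave a median ratio of 0.912, and 1.03 at JUNB and 1 at MYC.

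**Figure D3:**
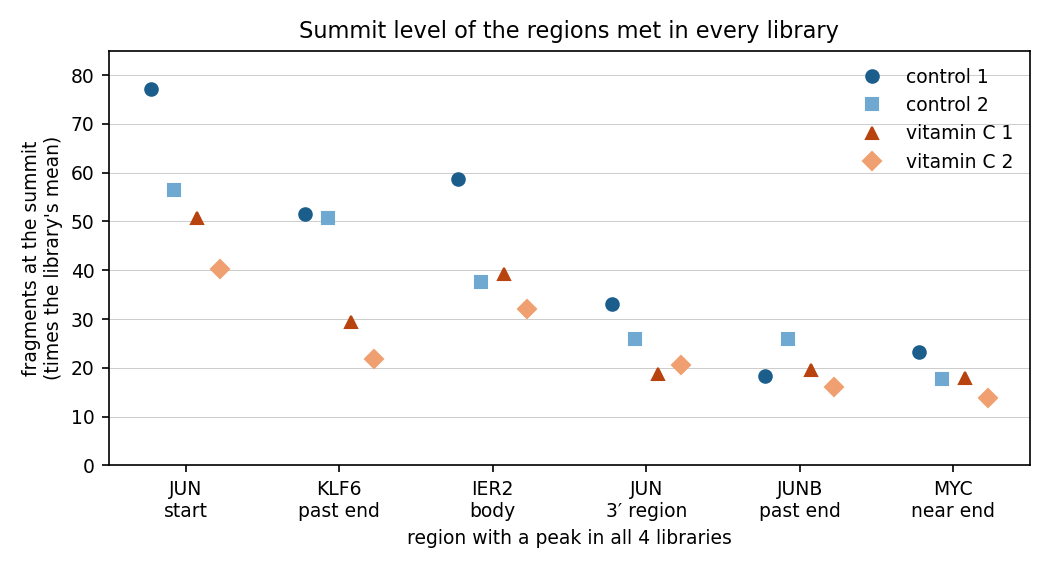
Fragments at the highest summit, divided by the mean fragments per position of the library (vertical axis), at the 6 regions with a peak in all 4 libraries, with 1 point per library. The JUN start is highest (77.2 and 56.5 in the controls, 50.6 and 40.2 after vitamin C), the controls and vitamin C libraries are apart at both JUN regions and at KLF6, and they overlap at IER2, JUNB and MYC.

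The position of the opened DNA differed between genes of the group. A peak within 1 kb of the gene start was called in both controls at JUN, IER2 and KLF6 of the 9 genes with a known strand, and in both vitamin C libraries at JUN alone. Over 15812 genes with a strand, the share with such a peak was 22.1% and 18.8% in the controls and 9.89% and 9.39% after vitamin C. Within 1 kb of the gene end, JUN, JUNB and KLF6 had a peak in all 4 libraries, and the shares over all these genes were 19.2%, 16.5%, 8.82% and 8.65%. At JUNB this was 44, 67, 30 and 31 bp of a peak whose summits lay further out. The shares at starts and ends are for single libraries. The share of all genes with such a peak in both controls, in both vitamin C libraries or in all 4 was not counted.

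Which genes held a peak after vitamin C went along with their control strength, the mean percentile of a gene's best peak in both controls. JUN, IER2 and KLF6, at 99.2, 98.3 and 96.7, were in the strongest of 5 equal groups of genes, of which 95.5% were kept, 3.76% partly kept and 0.781% lost. MYC, at 86.7, was in the group below, with 71.1%, 20.4% and 8.52%. JUNB, at 41.7, and ATF3, at 18.2, were in the weakest, with 14.8%, 28.7% and 56.6%. The place of JUNB rests on controls that disagree, with percentiles of 7.18 and 76.2 in replicates 1 and 2 for a peak whose summit lay outside the widened gene. At ATF3 the percentiles, 32.6 and 3.71, belong to different peaks. The groups between, which hold none of the 10 genes, had 41.9%, 32.5% and 25.6% in the third and 25.3%, 31.9% and 42.8% in the second weakest. JUNB was thus in the smaller part of its group, and the other 5 were in the larger part of theirs.

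**Figure D4:**
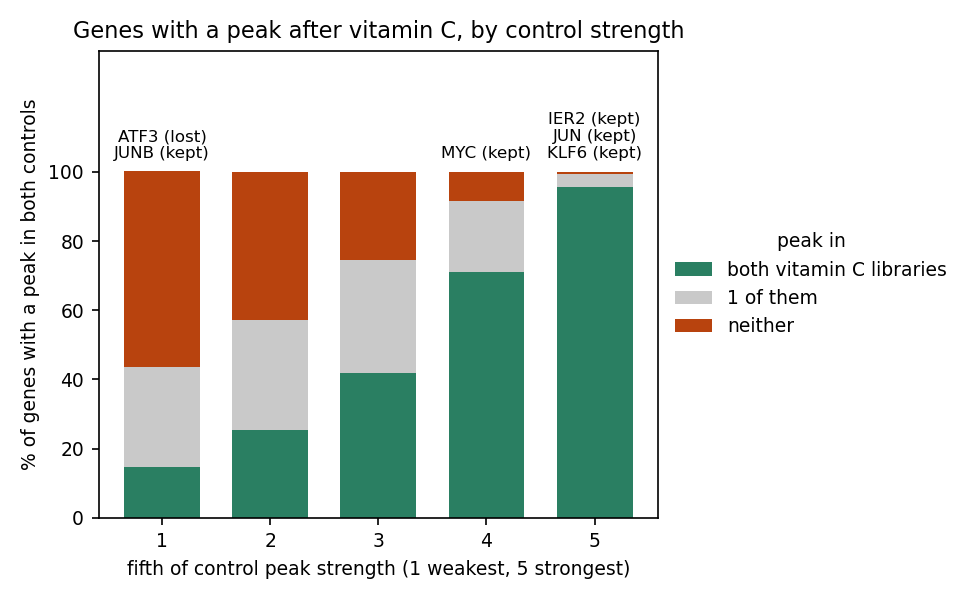
Share of protein-coding genes (vertical axis, %) with a peak in both, 1 or neither vitamin C library, among genes with a peak in both controls, in 5 groups of 1409 genes by control strength (horizontal axis). The share with both rises from 14.8% to 95.5%, and the 6 immediate early genes with a peak in both controls are named above their groups, kept standing for both vitamin C libraries and lost for neither.

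Other genes of the same network came from lists that, like the 10 genes, were chosen with earlier results known. Among 15 other AP-1 family genes, 6 had a peak in both controls; 2 were kept, 1 partly kept and 3 lost. FOSL1, a Fos-related antigen, was covered for 1293 and 740 bp in the controls and 542 and 618 bp after vitamin C. ATF2, a partner of JUN, had 1275 and 694 bp against 692 and 477 bp. The lost genes were ATF7, with 909 and 333 bp in the controls, and the small Maf genes MAFF (1130 and 416 bp) and MAFG (760 and 852 bp). Among 42 other immediate early genes, 19 had a peak in both controls; 13 were kept, 2 partly kept and 4 lost. The strongest were GADD45B, a growth arrest gene (1319 and 956 bp against 497 and 892 bp), ID1 (1022 and 1035 against 263 and 608 bp) and HES1 (1093 and 991 against 514 and 517 bp), the last pair encoding repressors of differentiation. The 4 lost genes were KLF10, NFKBIA, the inhibitor of NF-κB, NR4A1, an orphan nuclear receptor, and PPP1R15A, the eIF2α phosphatase subunit. PPP1R15A had 1690 and 701 bp in the controls. DUSP1, ZFP36 and CCN2 had a peak in 1 control at most. EGR2, EGR3, EGR4, IER3, NR4A2, NR4A3 and ARC had none in any library. This was so for 18 of the 42 genes, these included, and for 52.5% of all protein-coding genes.

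Upstream of these genes, 12 of 21 kinases and factors of the serum response had a peak in both controls; 7 were kept, 2 partly kept and 3 lost. MAP2K1, the kinase that activates ERK, had 3013 and 2533 bp in the controls and 963 and 1042 bp after vitamin C, and MAPK14 and CREB1 were also covered in all 4. ELK1, the partner of serum response factor, had 960 and 995 bp in the controls and none after vitamin C, as had MAP2K4 and MAPK9 of the JNK pathway, at 236 and 550 bp and 965 and 541 bp. SRF itself, from the list of immediate early genes, had 2271 and 1442 bp against 1450 and 798 bp. Of 11 genes of the MYC network 9 had a peak in both controls; 5 were kept, 2 partly kept and 2, MGA and MXD1, lost. MAX, the partner of MYC, had 363 and 379 bp against 209 and 362 bp, MXD3 2572 and 2254 bp against 1876 and 1351 bp, and MLX 3286 and 2254 bp against 475 and 1282 bp. Of 10 other KLF genes 4 had a peak in both controls; KLF16 was kept, 2 were partly kept and KLF11 was lost. The shares over all genes are those given above, 49.7% kept and 26.9% lost.

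Genes of similar length and pattern were found by the distance between log2 values of covered bases plus 100 over the 4 libraries. The nearest to JUN among 1727 genes were SRSF2, a splicing factor gene (3172, 3009, 2015 and 1574 bp), and RPL7, at distances of 0.22 and 0.24. The nearest to IER2 was ZBTB6 at 0.12, then TM7SF2. CCNB1, the mitotic cyclin gene, and FKBP4 were nearest to MYC at 0.45 and 0.46, and LRWD1 and NOP53 to KLF6 at 0.54 and 0.56. The nearest to JUNB were CDKN2D at 0.61 (52, 39, 0 and 0 bp) and MICOS13 at 0.66 (0, 54, 0 and 26 bp). Unlike JUNB, neither had a peak in all 4 libraries. With so few bases the 100 added to each value makes up most of it.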

How the data were processed

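The submitters' processing notes name MACS2 2.2.7.1, Bowtie2 2.4.5, deepTools, bcl2fastq 2.19, cutadapt and Trim Galore and the build hg38; settings and order: not given in the sources used here. The deposited peak lists, 1 per labelled library, hold position and summit, a score, a fold enrichment (ratio to background) and −log10 values of p and q as the authors deposited them. The cell line field of the labels differs between samples, while each title names HEK293T, which was followed. The fold was used within a list, as percentiles and, with p, to solve for fragments and background at the summit (tolerance 0.005 in −log10 p; 100% of peaks solved; labelled fragments scaled by 0.776 in vitamin C replicate 1). The genome-wide mean was the lowest background held by at least 2% of peaks. Peaks off chromosomes 1 to 22 and X, 4.23% to 5.06% of a list, were left out; no filter on low values was applied. Gene positions and strands came from RefSeq tables of GRCh38.p14, the same build as hg38; they hold no exons, and 15812 of 19970 protein-coding genes had a strand.

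All 10 genes are named. In each list the lost genes, and up to 3 kept genes of highest control strength, are named by rule, as are the 2 nearest genes for each of the 5 kept ones; EYA1, SRF, DUSP1, ZFP36, CCN2, EGR2, EGR3, EGR4, IER3, NR4A2, NR4A3, ARC and markers without peaks were named after their values were seen. Some marker genes are not reported here. The genes and lists were chosen with earlier results of these data known. Exact two-sided permutation tests compared the conditions, with Benjamini-Hochberg adjustment over all genes with a peak. Python 3.11.15, numpy 2.4.6, pandas 2.3.3 and scipy 1.17.1 were used; presence calls and coverage were tested on simulated lists of 800 genes, and the depth solution on simulated peaks.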

Additional observations from a re-analysis of the deposited data

How the results depend on the processing

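The difference in the number of genes with a peak (-2) was 0.5 in lists of equal length and -3 to -1 with 1 library left out. The log2 ratio of covered bases (-1.27) was -1.78 at −log10 q of at least 5, -1.70 at a fold of at least 6.06, -0.38 in lists of equal length, -1.76 in genes not widened, -1.14 in genes widened by 5 kb, and -1.31 to -1.23 with a library left out. Lost genes (1) were 0 at the stricter q, at the stricter fold, in equal lists, without widening, and with the summit or the larger part of the peak inside; they were 1 to 3 with a library left out, and FOSB and JUND joined ATF3 without control replicate 2. Kept genes (5) were 2 at the stricter q and fold (JUN and IER2) and 3 without widening; at 5 kb FOSB joined through the tRNA gene. In lists of equal length the difference in covered bases turned to 157 bp at JUN and 115 bp at IER2. At KLF6 and MYC the difference was below 0 in each of the 12 alternatives, among them the replicate block, which could not change it. The median summit ratio (0.710), with alternatives chosen after seeing the data, was 0.602 to 0.785 with a library left out and 0.912 for undivided fragments, where JUNB came to 1.03. Replicate differences over 7045 genes correlated at 0.0513 between conditions, so the numbers did not pair the libraries. A replicate block gave -2, -1.27 and 0.719. In this balanced design a block leaves a difference of means unchanged by construction, so it is no check on those differences. Kept and lost calls were not made with it. The list length, which differs between conditions, is made equal in that alternative; for the others the cause was not tested. At 6 to 10 fragments for the weakest peaks, counting error is large.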
